A study of Mus musculus with 2 samples.

Results

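The regions described here are stretches of open chromatin in mouse urinary bladder that lie away from transcription start sites (TSSs) and hold a binding sequence of the transcription factor AP-1 near their middle. Peaks of both libraries were joined where they overlapped by at least 1 bp. A joined region was kept if it held peaks of both libraries, lay on an autosome and was centred over 1 kb from any annotated TSS. A total of 45084 of the 144484 joined regions met these terms and are called distal regions below. An exact match of the 7 bp AP-1 sequence within 100 bp of the centre was then required, and 5553 regions, or 12.3% of the distal regions (exact binomial 95% interval 12.01 to 12.62%), had one. These are the AP-1 regions. A site counted for a region lay within 100 bp of its centre, at times beyond the edge of a narrow region. With the peaks of replicate 1 alone 11435 regions met the rule, and with those of replicate 2 alone 5688.

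The assay was DNase-seq, in which the nuclease DNase I cuts DNA that nucleosomes leave exposed and the cut ends are sequenced. Urinary bladders came from B6CASTF1/J males aged 14 days, first-generation hybrids of the inbred strains C57BL/6J and CAST/EiJ. There was 1 group of 2 biological replicates, without treatment or mutation in the labels. The label of replicate 1 names a single male, and that of replicate 2 names 3 males together. No conditions were compared, and with 2 replicates the smallest two-sided p of an exact sign-flip test is 0.5, so means carry the SD over both replicates and no test. Intervals on shares cover counting error over regions only, and regions of 1 library are not replicates.

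AP-1 is a family of dimers built from Jun proteins and Fos, ATF or MAF partners, joined through a leucine zipper. The dimers bind a short palindrome known as the TPA response element, one arm per subunit. Several members are switched on within minutes by growth factors, stretch and injury. In epithelia and fibroblasts AP-1 sites are a common feature of enhancers, where AP-1 works with factors of the tissue and with TEAD proteins, the DNA-binding partners of YAP. The palindrome reads TGACTCA on one strand and TGAGTCA on the other, so a central C and a central G are the same double-stranded site. The nearest sequence for comparison has a central A or T, as TGAATCA or TGATTCA, with the arms left as they are. Among distal regions without an AP-1 site 1343 held that sequence.

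The sequences below are the strongest AP-1 regions by signal that lie outside exons, then the strongest ones assigned to genes of urothelium, cell adhesion, smooth muscle and stroma, and the strongest with 3 sites. They show what the rule selects and how different the surroundings of the palindrome are. All are from the C57BL/6J reference of build mm10, 5′ to 3′ on the plus strand, with the AP-1 palindrome in capitals. The CAST/EiJ allele of these hybrid animals was not examined.
Ccnd3, intron, chr17:47511244-47511304: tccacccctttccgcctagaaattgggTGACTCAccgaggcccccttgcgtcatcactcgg
Cdkn1a, intron, chr17:29095545-29095605: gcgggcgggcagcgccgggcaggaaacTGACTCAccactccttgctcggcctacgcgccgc
Lrrc74a, intergenic, chr12:86801285-86801345: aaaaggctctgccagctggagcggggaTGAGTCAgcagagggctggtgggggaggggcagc
Atp23, intergenic, chr10:126511688-126511748: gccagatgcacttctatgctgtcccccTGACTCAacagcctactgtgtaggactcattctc
Gata3, intron, chr2:9879726-9879786: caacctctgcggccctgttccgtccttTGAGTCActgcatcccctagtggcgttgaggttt
Ppl, intergenic, chr16:5134968-5135028: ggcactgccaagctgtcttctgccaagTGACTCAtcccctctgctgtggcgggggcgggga
Cnn1, intergenic, chr9:22096147-22096207: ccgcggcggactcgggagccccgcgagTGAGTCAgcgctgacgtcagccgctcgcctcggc
Fbln1, intron, chr15:85233891-85233951: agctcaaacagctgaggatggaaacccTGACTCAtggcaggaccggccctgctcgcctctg
Hmox1, intergenic, chr8:75083924-75084041: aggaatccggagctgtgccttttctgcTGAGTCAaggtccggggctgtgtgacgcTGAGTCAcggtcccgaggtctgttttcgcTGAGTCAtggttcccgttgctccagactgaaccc

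The strength of a region is the deposited peak signal, the authors' density value, which has no stated unit. In the Ccnd3 intron, a cyclin gene, the signal was 10.99 in replicate 1 and 11.98 in replicate 2 (11.5 ± 0.71, SD, n = 2). The Cdkn1a region, in the gene of the cell cycle inhibitor p21, had 10.7 and 9.64. Both regions were among the 3 strongest of all AP-1 regions in mean rank, and neither palindrome lay in a called footprint, a short stretch inside open chromatin that the authors called as protected from cutting. The strongest by mean rank was an exon of Mroh2a, with 14.2 and 9.51, followed after Lrrc74a by an exon of Slc43a2 with 12.1 and 7.46. The Atp23 region, with 9.33 and 10.7, had 2 sites, of which 1 lay in a footprint in both replicates. The other 4 of the 10 strongest were assigned to Oat, Fmnl1, Krt78, a keratin gene, and Frmd8. Their signals ran from 9.47 to 10.1 in replicate 1 and from 7.47 to 8.94 in replicate 2. Of the 10 strongest, 4 had a footprinted site in replicate 1 and 3 in replicate 2.

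The 4 regions picked from tissue lists differed in strength and in footprints. The region 1081 bp from the TSS of Gata3, a transcription factor of urothelium, had 9.84 in replicate 1 and 6.94 in replicate 2. The region 2570 bp from Ppl, which encodes the desmosomal protein periplakin, had 3.80 and 3.08. The region 3025 bp from Cnn1, the smooth muscle protein calponin, had 5.32 and 3.41. None of those palindromes lay in a footprint. The region 27916 bp into Fbln1, a matrix protein of stroma, had the lowest signal of the 4, 3.49 and 2.01. Its palindrome sat at the exact centre, 0 bp away, and was footprinted in both replicates.

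Hmox1 encodes the heme-degrading enzyme heme oxygenase and is a textbook target of the Nrf2 and Bach1 proteins, which bind with small Maf partners at extended forms of the AP-1 palindrome. Both of its 2 distal regions were AP-1 regions. The one printed above, chr8:75083901-75084100, lies 9620 bp from the TSS and had a signal of 7.41 and 5.25 (6.33 ± 1.53, SD, n = 2). All 3 of its sites lay in a footprint in replicate 1 and 2 of them in replicate 2. The other region, 3950 bp from the TSS, held 1 site and had 3.63 and 1.71.

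AP-1 sites were more frequent in distal regions than at promoters. In regions with peaks of both replicates that were centred within 1 kb of a TSS, 4.18% (1096 of 26239) held the palindrome. The central A or T sequence had a share of 3.51% in distal regions and 1.17% at promoters, so it too was the lower at promoters. With distance from the TSS the AP-1 share was 10.96% at 1 to 5 kb, 12.7% at 5 to 20 kb, 13.3% at 20 to 50 kb and 12.3% beyond 100 kb. Introns held 2836 of the AP-1 regions, intergenic sequence 2465 and exons 252. The share was 8.31% among distal regions in exons (interval 7.35 to 9.35%), against 12.9% in introns and 12.3% in intergenic sequence. Across the 19 autosomes it ran from 10.6% on chromosome 19 to 14.4% on chromosome 1.

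Of the regions found in 1 replicate, the share was 11.5% (5790 of 50504) for those of replicate 1 alone and 5.60% (276 of 4932) for those of replicate 2 alone. Read the other way, 95.3% of the distal AP-1 regions in replicate 2 were also in replicate 1, against 89.5% of distal regions without the site. In the 20% of distal regions of replicate 2 with the weakest signal these were 80.7% and 62.5%. In the 20% with the strongest they were 100% and 99.9%, where nearly every region was found again and a gap could not show. For replicate 1, the deeper library with 139821 peaks to 82225, the shares found again were 49.0% and 46.9%. In its weakest 20% they were 11.6% and 10.6%.

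AP-1 regions were about as strong as other distal regions. Their median signal was 1.08 in replicate 1 and 0.783 in replicate 2, against 1.09 and 0.815 for the other 39531 distal regions. The difference in median log2 signal was -0.01 in replicate 1 and -0.06 in replicate 2, a mean of -0.03 ± 0.04 (SD, n = 2), which is within the spread of the replicates. It was positive when regions were drawn from 1 library alone, 0.11 for replicate 1 and 0.046 for replicate 2. Regions with the central A or T sequence had medians of 1.005 and 0.760. Promoters stood higher, with 2.18 and 1.76. Within the AP-1 regions the lowest signals were 0.0885 and 0.0720 and the highest 14.2 and 11.98. The groups overlapped over nearly their whole range, and 80% of AP-1 regions lay between 0.495 and 2.80 in replicate 1.

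The share of distal regions with an AP-1 site was lowest in the strongest and weakest regions, the latter not with the stricter peak list. Distal regions were ranked by the mean of their ranks in the replicates and split into 10 classes of equal size. The share was 10.9% in the weakest class, 13.9% in the sixth and 9.45% in the strongest (interval 8.61 to 10.3%). With the stricter list the weakest class had 12.4% and the strongest 9.56%, against 12.04% of all its distal regions. The low share of the strongest class held with the peaks of replicate 2 alone, at 9.29%, and was 11.1% with those of replicate 1 alone. The order of the ends depended on joining the libraries: with 1 library alone the weakest class had 7.53% in replicate 1 and 7.76% in replicate 2, below the strongest class. Between replicates the log2 signals of AP-1 regions had an SD of the log2 ratio of 0.40, against 0.45 for other distal regions.

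**Figure D1:**
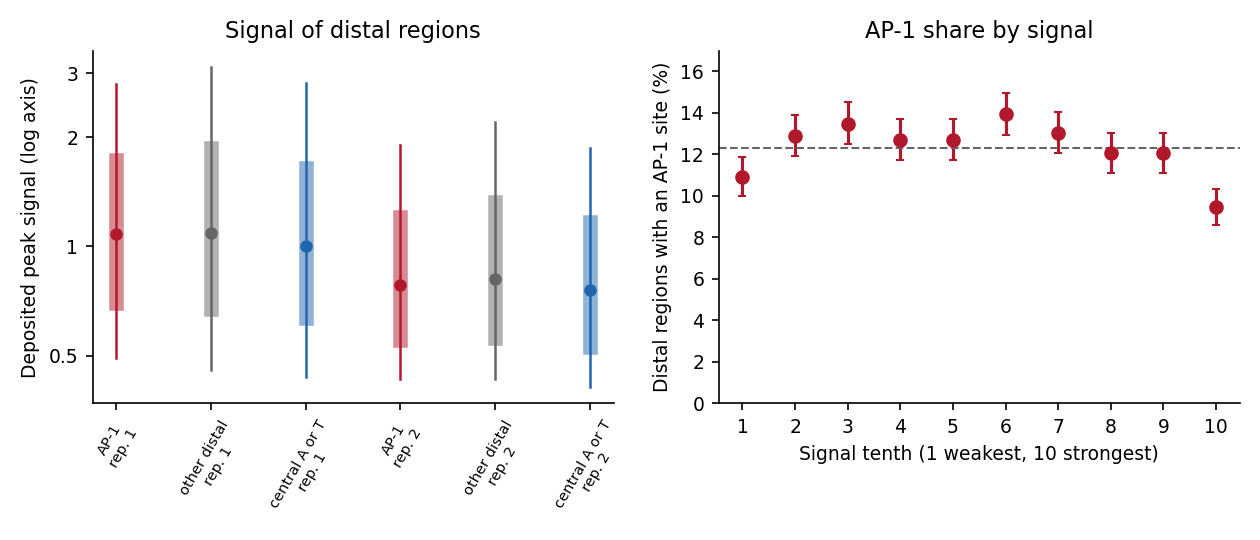
Left, deposited peak signal (log axis) of distal regions with an AP-1 site, other distal regions and regions with the central A or T palindrome, in each replicate; dots are medians, thick bars run from the lower to the upper quartile and thin lines cover the middle 80% of regions. Right, percent of distal regions with an AP-1 site by class of signal, with exact binomial 95% intervals and the overall 12.3% as a dashed line; the sixth class is highest at 13.9% and the strongest lowest at 9.45%.

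The number of sites went with strength. A single AP-1 site was found in 5085 regions, 2 in 439 and 3 in 29, which gives 6050 sites. Regions with 2 or more sites had a median signal of 1.31 and 0.871 in the replicates, against 1.07 and 0.775 with a single site. The difference in median log2 signal was 0.29 in replicate 1 and 0.17 in replicate 2 (0.23 ± 0.08, SD, n = 2), higher in both replicates and larger than their spread. Distance of the site from the centre made less difference: sites within 25 bp against sites over 75 bp gave 0.02 ± 0.06. Neighbouring sites of 1 region started a median of 49 bp apart, from 7 to 176 bp. In other features the AP-1 regions were close to other distal regions: the median width was 207 against 200 bp, the median GC content of the window was 52.2% in both, and the median distance to a TSS was 11526 against 10425 bp.

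AP-1 sites were concentrated toward the middle of the regions, and the central A or T sequence was not. Within 10 bp of the centre there were 7.57 AP-1 sites per kb of window, and from 10 to 19 bp 7.996. The density declined at each further step to 3.14 at 90 to 97 bp. The central A or T sequence in its own regions stayed between 4.62 and 5.62 per kb at all distances. The median site lay 37 bp from the centre for AP-1 and 49 bp for the comparison sequence, and 35.8% against 25.5% lay within 25 bp.

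**Figure D2:**
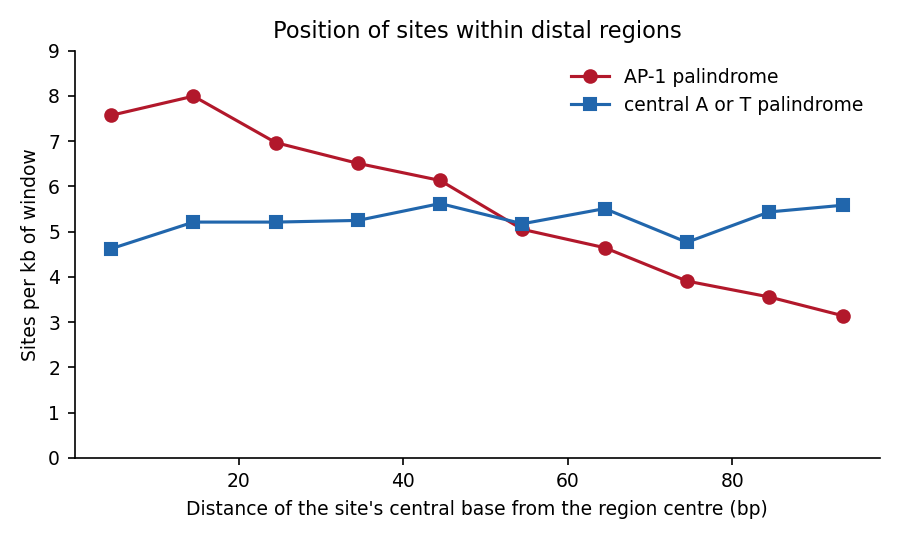
Sites per kb of window (vertical axis) by distance of the site's central base from the region centre in bp, for AP-1 palindromes in AP-1 regions and for central A or T palindromes in regions without an AP-1 site. The AP-1 density goes from 7.996 at 10 to 19 bp down to 3.14 at 90 to 97 bp, while the other sequence stays between 4.62 and 5.62.

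Most copies of the palindrome in the genome were outside these regions. The 19 autosomes hold 396904 matches, of which 1.52% were within 100 bp of the centre of an AP-1 region. Of the 366685 central A or T matches 0.374% lay as near the centre of the comparison regions, which exclude any region with an AP-1 site. Repeats marked by soft-masking held 14.99% of all AP-1 matches but 3.93% of those in AP-1 regions. The comparison sequence showed the same, with 17.5% and 4.01%.

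The bases next to the palindrome went with how often it was open. The base just before the site was read on each strand, which gives 10 combinations. With G on both sides 2.70% of autosomal matches were in an AP-1 region, with C and G 2.53%, and with A and G 2.37%. With T on both sides it was 0.356%. All 4 combinations with T lay at or below 0.957%, and the 6 without T at or above 1.34%. The comparison sequence also had its lowest share with T on both sides, 0.169%, and its highest, 0.644%, with C and G.

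Footprints at the palindrome were the next readout. In replicate 1, 94.6% of AP-1 regions had at least 1 footprint within 100 bp of the centre, and in replicate 2 84.4%. Over all 45084 distal regions these shares were 94.5% and 85.8%, so a footprint somewhere in the region was about as common in AP-1 regions as in distal regions at large. Footprints covered less of the AP-1 windows, 15.97% and 10.08% of bases, than of other distal windows, 19.4% and 12.3%.

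The palindrome itself was footprinted more often than the comparison sequence. The central base of an AP-1 site lay in a footprint at 16.8% of sites (1016 of 6050) in replicate 1 and 11.2% (680) in replicate 2, a mean of 14.0% ± 3.93 (SD, n = 2). That was close to the share of all bases in footprints, 15.97% and 10.08% in AP-1 windows and 19% and 12.02% in all distal windows. Central A or T sites were at 8.17% and 4.74%, a mean of 6.46% ± 2.42. The lower AP-1 value was above the higher value of the comparison sequence, so the replicates did not overlap. In both replicates at once 295 AP-1 sites, or 4.88%, were footprinted, and 23.2% were in at least 1. Counted only where the whole 7 bp lay in the footprint, the means became 7.355% and 2.41%.

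Stronger and more central sites were footprinted more. In the weakest 20% of distal regions 13.3% of AP-1 sites were in a footprint in replicate 1 and 7.03% in replicate 2, and in the strongest 20% 26.2% and 13.6%. Within 25 bp of the centre the shares were 23.1% and 17.4%, and over 75 bp from it 9.50% and 5.21%. The AP-1 rise with strength was not steady. In replicate 1 the share was 14.79% in the second weakest 20% and 13.64% in the middle 20%. In replicate 2 it was 14.06% in the 20% just below the strongest. From the weakest to the strongest 20% and from outer to central positions, central A or T sites moved the same way. Neither trend was thus particular to AP-1. Their shares went from 5.363% and 4.732% in the weakest 20% to 15.49% and 6.195% in the strongest. Over 75 bp from the centre they were 4.747% and 2.848%, and within 25 bp 11.14% and 8.857%. In each of these classes of signal and position the AP-1 share exceeded that of the central A or T sequence in the same replicate. Flanking T went with fewer footprints: with C and T beside the site the shares were 8.84% and 4.97%, and with A and G 21.5% and 12.6%.

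Around the site the footprint share formed a double peak. In replicate 1 it was 25.2% at 7 bp to one side of the central base and 24.3% at 8 bp to the other side, with 16.8% at the central base. In replicate 2 these values were 14.98%, 14.1% and 11.2%. Between 20 and 60 bp away the mean share was 15.1% and 9.88%, so the central base was above that mean by a ratio of 1.11 and 1.14. At central A or T sites the same ratio was 0.488 and 0.443, a dip below the surroundings. Nearer to AP-1 sites, 8 to 15 bp away, the mean share was 17.9% and 18.5% on the 2 sides in replicate 1. In replicate 2 it was 11.2% and 11.5%. The central base of AP-1 sites was thus below these nearer positions in replicate 1 and about level with them in replicate 2. A footprint over an AP-1 site had a median width of 15 bp in replicate 1 and 11 bp in replicate 2, against 12.5 and 10 bp over a central A or T site. The cutting preference of DNase I at these letters was not tested.

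**Figure D3:**
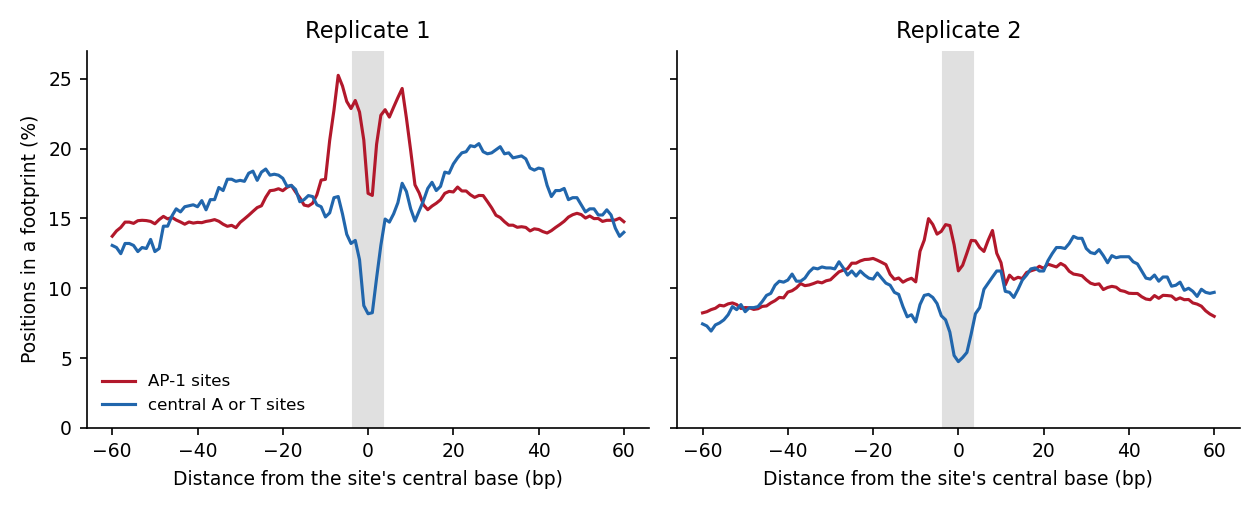
Percent of positions inside a called footprint (vertical axis) by distance in bp from the central base of AP-1 sites and of central A or T sites, for each replicate; the grey band marks the 7 bp site. AP-1 sites show 2 maxima beside a lower central base, 16.8% in replicate 1 and 11.2% in replicate 2, and central A or T sites dip to 8.17% and 4.74%.

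Other motifs near the AP-1 site were counted on both strands within 100 bp of the region centre, leaving out matches that overlap an AP-1 match. A match shows only that the letters are there. Of 34 motifs, 27 occurred in at least 1% of distal regions. AP-1 regions held 9 of them more often than other distal regions and 18 less often. The interval of the AP-1 share lay above the other share for 3 motifs and below it for 6. The central A or T palindrome had the highest ratio, 1.27: it was in 4.30% of AP-1 regions and 3.397% of other distal regions, and in 3.51% of all distal regions.

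The motif of CTCF, the factor that anchors chromatin loops, differed most. It was in 2.34% of AP-1 regions (130 regions, interval 1.96 to 2.77%) and 9.79% of other distal regions, with 8.87% over all distal regions. Weighting the other regions to the GC content of AP-1 regions left the ratio at 0.239. Where a CTCF match was in an AP-1 region it was footprinted at 92.3% and 78.5% of matches in the replicates, against 97.5% and 85.6% in other distal regions. The motif of KLF and SP factors, GGGCGGG, was in 5.10% against 5.97% (5.87% of all). That gap was lost with GC weighting, where the ratio was 1.01. Its matches in AP-1 regions were footprinted at 58.1% and 33.3%.

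The remaining differences were small. Among the less frequent motifs, the T-box motif AGGTGTNA was in 1.68% against 2.05%, the motif of interferon regulatory factors in 1.603% against 1.87% and the ETS motif with a C or G and then CGGAAG in 2.83% against 3.39%. Over all distal regions these 3 had shares of 2.005%, 1.84% and 3.32%. Among the more frequent ones, NF-kappa-B matches were in 2.95% against 2.62%, those of the grainyhead-like epithelial factors, AACNGGTT, in 2.81% against 2.52%, the STAT motif TTCCNGGAA in 1.10% against 0.992% and the TCF motif ATCAAAG in 2.40% against 2.17%. Their shares over all distal regions were 2.66%, 2.56%, 1.005% and 2.20%. For the latter 4 and for the motif of interferon regulatory factors, the interval of the AP-1 share included the other share.

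Motifs of other factors that act in bladder or beside AP-1 had ratios close to 1. The ETS motif CAGGAAG was in 13.02% of AP-1 regions and 11.99% of others (12.1% of all distal regions). GATA motifs, an A or T and then GATAA, were in 14.4% and 13.5% (13.6% of all). With the central A or T palindrome these are the 3 motifs whose interval lay above the other share. With GC weighting the other share was 13.79% for GATA, inside its interval of 13.53 to 15.39%. For this ETS motif it was 12.14%, at the edge of its interval of 12.15 to 13.93%. The KLF motif GGGTGTG was in 8.16% and 7.58% (7.65% of all), and the RUNX motif TGTGGTT in 4.45% and 4.48% (4.48% of all). The TEAD hexamer GGAATG was in 15.1% and 14.4% (14.5% of all), a ratio of 1.05, or 1.02 with GC weighting.

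**Figure D4:**
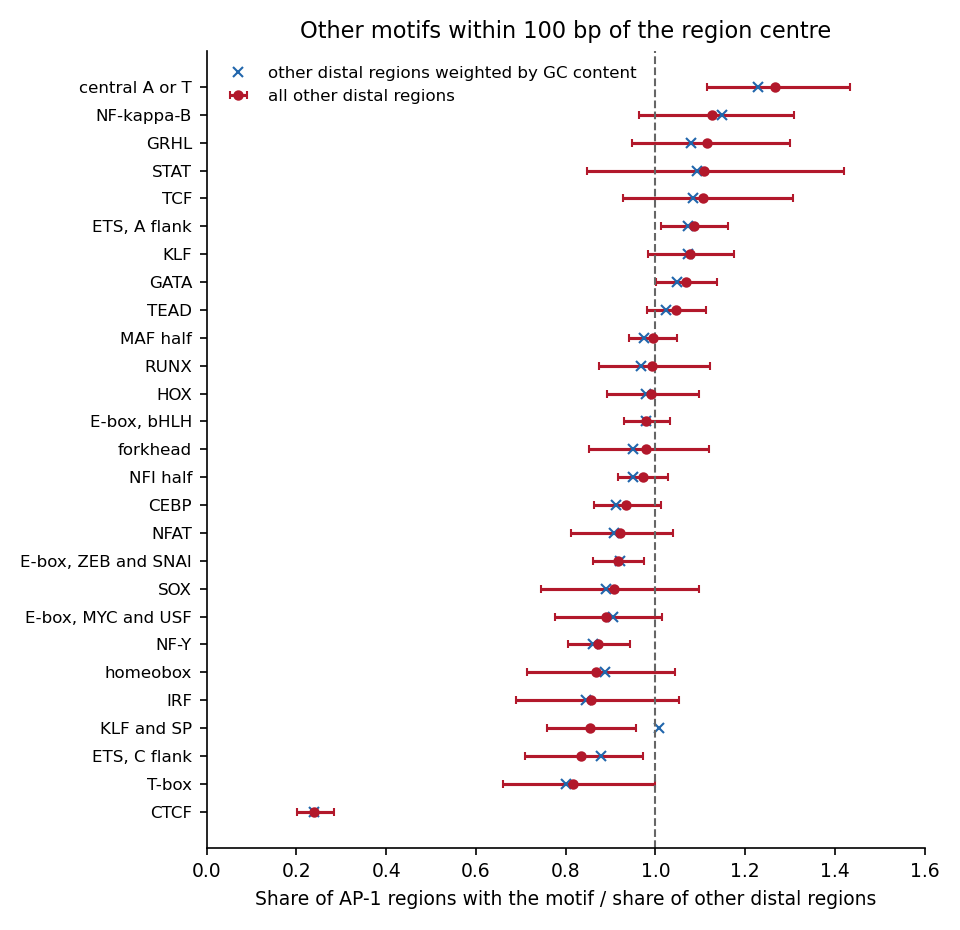
Share of AP-1 regions with each of 27 motifs divided by the share of other distal regions (horizontal axis), with bars from the exact binomial 95% interval of the AP-1 share alone; crosses use other distal regions weighted by GC content. CTCF stands apart at 0.239, and the central A or T palindrome is highest at 1.27.

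TEAD hexamers were not more frequent, but 1 arrangement of them recurred. Gaps from 0 to 40 bp between hexamer and AP-1 site and the 2 orientations give 82 classes. The arrangement with most hexamers in AP-1 regions had CATTCC, the reverse complement of GGAATG, 7 bp before the AP-1 site. It was chosen after the values were seen. Counted to the nearest site it had 20 hexamers, against a mean of 5.13 per class, and again 20 in the AP-1 regions that have no near-copy elsewhere among them. The same class also had the highest count in regions that did not enter that choice. Distal regions of replicate 1 alone with an AP-1 site had 15 (mean 4.60), and promoters with one had 5 (mean 0.805). Neither count was scaled to how often each arrangement occurs in the reference, and the promoter count is small.

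Across the autosomes the reference holds 364 pairs in this arrangement, of which 21, or 5.77% (interval 3.61 to 8.68%), lay in AP-1 regions. The other 81 classes together had 457 of 19901 pairs there, or 2.30%, and the highest single class had 4.95%, which lies inside that interval. Because the arrangement was chosen for its high count in these same regions, its high share there is no independent result. The 21 pairs were in 21 regions, with signals from 0.521 to 8.10 in replicate 1 (median 1.46) and from 0.296 to 5.05 in replicate 2 (median 0.951). In mean rank 15 of the 21 were above the median of all AP-1 regions. The AP-1 site was in a footprint in 11 of 21 pairs in replicate 1 and 6 of 21 in replicate 2, or 52.4% and 28.6%. Of all AP-1 sites 16.8% and 11.2% were, and in the strongest 20% of distal regions 26.2% and 13.65%. The pairs are few and were not compared with sites of matched strength and position. The hexamer was in a footprint in 11 and 6 pairs as well.

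The 6 strongest of the 21 are printed to show the arrangement. Each is read so that CATTCC comes first, with both motifs in capitals.
Edn2, chr4:120148844-120148883, plus strand: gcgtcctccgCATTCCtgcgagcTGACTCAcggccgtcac
Gm11733, chr11:117568709-117568748, minus strand: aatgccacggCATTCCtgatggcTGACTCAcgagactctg
Cirbp, chr10:80163936-80163975, plus strand: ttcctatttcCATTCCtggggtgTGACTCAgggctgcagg
Ccdc3, chr2:5286563-5286602, plus strand: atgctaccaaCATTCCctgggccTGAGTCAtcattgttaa
Tmprss2, chr16:97686082-97686121, minus strand: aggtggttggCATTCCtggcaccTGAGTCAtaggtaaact
Itgb6, chr2:60703438-60703477, plus strand: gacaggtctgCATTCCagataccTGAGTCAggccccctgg

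The strongest of these, 12355 bp from the TSS of Edn2, which encodes the peptide endothelin 2, had signals of 8.10 in replicate 1 and 5.05 in replicate 2 (6.58 ± 2.16, SD, n = 2). Its hexamer was footprinted in both replicates and its AP-1 site in replicate 1. The region at Itgb6, the epithelial integrin subunit beta 6, had 2.90 and 1.36, with the AP-1 site footprinted in both. At Tmprss2, a membrane protease gene of epithelia, the signals were 2.74 and 1.53. The Cirbp region, with 2.91 and 2.25, had no footprint over either motif in either replicate.

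**Figure D5:**
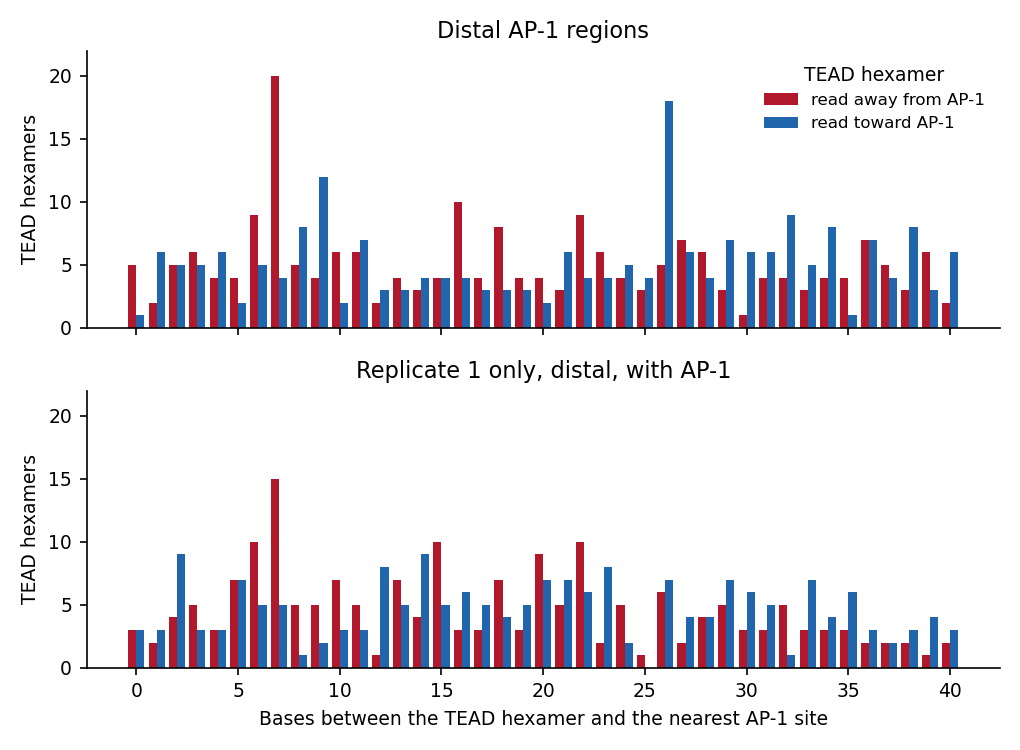
Number of TEAD hexamers (vertical axis) by gap in bp to the nearest AP-1 site and by orientation, in AP-1 regions (top) and in distal regions of replicate 1 alone that hold an AP-1 site (bottom). The gap of 7 bp with the hexamer read away from AP-1 is the highest bar in both, with 20 and 15; the bar at 26 bp in the upper plot, 18 hexamers, is 3 without near-copies.

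Each distal region was assigned to the protein-coding gene with the nearest TSS, which does not show that it acts on that gene. In all, 3718 of the 11676 genes with a distal region had at least 1 AP-1 region, 2564 had 1 and 63 had 5 or more. Auts2 had the most, 9 of its 44 distal regions. Med13l, a subunit of the Mediator complex, Tns1, the focal adhesion protein tensin, Utrn, Frmd6, Tbl1xr1 and Cdk14 followed with 8 each. The next 11 genes had 7 each, from Gse1 with 7 of 45 to Arntl with 7 of 17. They included Sept9, the hedgehog pathway factor Gli2, the clock gene Arntl, Dusp10, a phosphatase that acts on the kinases upstream of Jun, and Lpp, a focal adhesion protein. Tmem44 and Sulf2, with 6 each, closed the 20.

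Among the 970 genes with at least 10 distal regions, 161 had no AP-1 region. The highest shares were in Utrn, with 8 of 16, and Slc22a23 and Fn1, with 5 of 10 each, or 50%. Cdk14 had 8 of 17 (47.1%), Msx2 and Lhfpl2 6 of 13 (46.2%), and 1810010D01Rik, Kif13a, Frmd6 and Arhgap28 between 41.7% and 45.5%. In Utrn, which encodes the dystrophin relative utrophin, the 8 regions ran from 0.562 to 1.80 in replicate 1 and from 0.376 to 1.25 in replicate 2. In Fn1, the matrix protein fibronectin, the 5 ran from 0.573 to 1.69 and from 0.368 to 0.735. Both ranges include the median over all AP-1 regions, 1.08 in replicate 1, and that of replicate 2 at Fn1 lies below its 0.783.

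The AP-1 share of the regions assigned to 14 gene lists ran from 6.45% for hepatocyte genes to 20.3% for known AP-1 targets. For each list the exact interval of its AP-1 share included the 12.3% of all distal regions. Of the 30 urothelial genes 26 had a distal region and 13 an AP-1 region, with 21 of 139 regions (15.1%, interval 9.60 to 22.2%). Gata3 and Grhl2, a grainyhead-like factor of epithelia, had 4 each, and Grhl3 and Shh, the hedgehog ligand of urothelium, 2 each. The strongest at Grhl2 had 4.02 and 2.24. Epithelial adhesion genes had 19 of 110 (17.3%), led by Jup, a plakoglobin shared by desmosomes and adherens junctions, and Dst with 3 each and Plec and Ppl with 2.

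Smooth muscle genes had 12 of 92 regions (13.04%), 3 of them at Itga8, an integrin subunit, and 1 each at Cnn1, Ppp1r12b, a myosin phosphatase subunit, and Chrm3, the muscarinic receptor through which the bladder contracts. With a match required within 50 bp of the centre the list's share was 3.26%, and that of urothelial genes 7.19%, where that of all distal regions was 7.87%. Stromal genes had 18 of 173 (10.4%), with 3 each at Fbln1, Dcn and the collagen genes Col5a1 and Col1a1. The strongest region at Col1a1 had 1.55 and 1.70, and at Dcn, a proteoglycan, 0.541 and 0.536. Endothelial genes had 10 of 81 (12.3%), with 2 each at Vwf, Erg and Ptprb and 1 at Pecam1. Immune genes had 4 of 34, at Kit, Ptprc and Cpa3, and nerve and glia genes 5 of 36, at Ngfr, Ncam1 and Tubb3.

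A distal region was found at 26 of 30 urothelial, 18 of 20 epithelial adhesion, 20 of 23 smooth muscle and 22 of 24 stromal genes. The same held for 15 of 20 endothelial and 12 of 20 immune genes. Of brain genes 16 of 20 had one, of hepatocyte genes 11 of 19 and of housekeeping genes 10 of 20. Urothelial, adhesion, smooth muscle and stromal genes were thus above brain, hepatocyte and housekeeping genes. Endothelial and immune genes were below brain genes. Hepatocyte genes had the lowest AP-1 share of the 14 lists. Brain genes had 13 of 76 (17.1%), with 3 each at Mbp, Rbfox3 and Syt1 and 2 at Snap25, and hepatocyte genes 2 of 31 (6.45%), at Apoh and Cps1. Housekeeping genes had 7 of 39 (17.9%).

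Of 17 genes for AP-1 subunits and their relatives, 15 had a distal region and 8 an AP-1 region, in all 19 of 101 (18.8%, interval 11.7 to 27.8%). Bach2, a repressor that binds with small Maf proteins, had 4, the strongest with 6.01 and 4.50. Jun, the founding subunit, had 3 of 12, with signals from 1.02 to 1.61 in replicate 1 and from 0.799 to 1.10 in replicate 2. Atf3, a stress-induced partner, had 3 of 9. At Mafk, a small Maf gene, all 3 distal regions were AP-1 regions, with 0.979 to 1.85 and 0.775 to 1.62.

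Immediate early genes, which respond within minutes to growth signals, had 35 of 203 (17.2%, interval 12.3 to 23.2%), and all 20 had a distal region. Klf6, a zinc finger factor, had 7 of 24, from 0.338 to 2.95 in replicate 1 and from 0.416 to 1.77 in replicate 2. Dusp4, a phosphatase of MAP kinases, had 5 of 16, and Ier5 and Klf4 3 each. Textbook AP-1 targets had 12 of 59 (20.3%, interval 10.98 to 32.8%), with 2 each at Hmox1 and Ccnd1 and 1 each at the matrix protease gene Mmp14 and the urokinase receptor gene Plaur. Targets of YAP and TEAD had 22 of 168 (13.1%), with 5 at Tgfb2, 4 at Gadd45a, a growth arrest gene, and 3 each at Tead1 and Rbms3.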

How the data were processed

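DNase-seq peak and footprint lists of 2 bladder libraries were used, each made from 1 library without pooling in build mm10, per the notes deposited with the samples. No aligner, caller or version is given in the sources used here. Peak signal, as deposited, is the authors' density per peak, whose scaling is not stated. Its values were whole multiples of 1 step per library, and the median AP-1 region held 208 steps in replicate 1 and 98 in replicate 2. The value deposited with each footprint, used as a position only, was 0.01 throughout.

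The longer peak list of each library was used, with 139821 and 82225 peaks, and 331596 and 200630 footprints. A region's signal in a replicate is that of its strongest peak. TSSs, exons and genes came from GENCODE M21 and sequence from the RefSeq assembly GRCm38.p6. Coordinates are 1-based. Of the gene lists' symbols, 1 had no match in the annotation. GC weighting used bins of 5 percentage points. Near-copies were found with blastn 2.17.0, at 80% identity or more over at least 80 bp. Other steps used matplotlib 3.10.9, scipy 1.17.1, pandas 2.3.3 and numpy 2.4.6 under Python 3.11.15 and were tested on simulated data.

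The members, gene lists and motifs were chosen with earlier results of these data known. Genes named are up to 4 per list with most AP-1 regions, the 20 with most of all genes, the 10 with the highest share and those of the 10 strongest regions. Not every gene so named is reported here. Motifs named are the 5 highest and 5 lowest ratios and TEAD, RUNX, ETS, GATA, KLF and grainyhead-like motifs. The Hmox1 sequence, the genes of the TEAD pairs and the near-copies were chosen after their values were seen. Alternatives were a stricter peak list, a TSS distance of 2500 bp, 50% reciprocal overlap, a match within 50 bp, each replicate alone, GC and signal weighting, whole sites, unmasked sites and a gene distance of 100 kb.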

Additional observations from a re-analysis of the deposited data

How the results depend on the processing

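Of 84 alternative values of 12 results, 63 stayed within the spread of the replicates, the counting interval or 1.5 times the count. The 63 include values that weighting could not change, because only the comparison side was weighted. These are the TEAD hexamer share of AP-1 regions with GC weighting, 15.07%, and the footprint share of AP-1 sites with signal weighting, 14.02%. The stricter peak list left 3047 AP-1 regions, with 12.4% in the weakest of 10 signal classes, a signal difference of -0.10 and TEAD hexamers in 13.8% of other distal regions. A match within 50 bp, a shorter window, left 3550 regions, or 7.87% of all distal regions in place of 12.3%. The strongest class had 5.77% and the weakest 6.52%. Near urothelial genes the share went from 15.1% to 7.19% and near smooth muscle genes from 13.04% to 3.26%. Why these 2 lists fell further than all distal regions was not tested. Beyond 2500 bp from a TSS the share was 12.7%. With whole sites in the footprint the shares were 7.355% for AP-1 and 2.41% for central A or T. Without 1 replicate the number of regions ran from 5688 to 11435, the share from 11.3 to 11.9%, that of the strongest class from 9.29 to 11.1% and of the weakest from 7.53 to 7.76%, and the signal difference from 0.046 to 0.11, against -0.03 as reported. No paired analysis was possible because there is 1 group. Whether the 2 libraries differ through depth or through pooling of animals cannot be told apart.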

Other observations

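A small part of the AP-1 regions are near-copies of each other, which was looked for after the spacing counts were seen. In all, 120 regions (2.16%) aligned to another AP-1 region at 80% identity or more over at least 80 bp, and 3 families had 10 or more members, with 19, 19 and 13. One family of 19, on 11 chromosomes, carried the grainyhead-like motif AACNGGTT in 18 regions and the TEAD and GATA motifs in 15 each. Its signals ran from 0.286 to 2.71 in replicate 1 (median 1.26) and from 0.272 to 2.78 in replicate 2 (median 0.823). Of its 20 AP-1 sites 2 were footprinted in each replicate. The 3 strongest by signal are printed with the palindrome in capitals, to show how alike they are.
Impg1, chr9:80814040-80814089, minus strand: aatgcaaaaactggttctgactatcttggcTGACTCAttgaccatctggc
Ube2e2, chr14:18565135-18565184, minus strand: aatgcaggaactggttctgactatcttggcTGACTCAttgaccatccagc
Hace1, chr10:46785915-46785964, plus strand: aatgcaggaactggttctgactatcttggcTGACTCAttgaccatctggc

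The commonest 31 bp core of this family occurs 12 times on the autosomes. Of these copies 5 lay in regions of both replicates and 1 in a region of 1 replicate. Counts at fixed spacings were lower without near-copies for some motifs. The grainyhead-like motif stood 14 bp from the AP-1 site in 1 orientation 21 times in all AP-1 regions and 3 times without near-copies. The GATA motif at 11 bp had 19 and 9. The TEAD arrangement at 7 bp had 20 with and without near-copies.

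A pair of motifs outside the naming rule, chosen after their values were seen, differed in footprints. The E-box CAGGTG, bound by ZEB and SNAI repressors, was footprinted at 21.4% and 16.2% of matches in AP-1 regions in replicates 1 and 2 and at 33.1% and 25.6% in other distal regions. The same letters can occur inside the CTCF motif, which was in 2.34% of AP-1 regions and 9.79% of other distal regions. E-box matches inside a CTCF motif were not separated, so their part in this difference was not tested. The nuclear factor I hexamer TTGGCA was footprinted at 41.7% and 26.9% of matches in AP-1 regions and at 38.5% and 23.8% in others, above the AP-1 site itself in both replicates.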
